A study of Mus musculus with 6 samples.

Results

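The 10 genes described here encode the desmosome of the epidermis: the cadherins Dsg1a, Dsg2, Dsg3, Dsc1, Dsc2 and Dsc3, the plaque proteins Dsp, Jup and Pkp1, and the corneodesmosome protein Cdsn. They were chosen by symbol from 35275 listed genes, and all 10 had enough counts to be tested, among 15720 tested genes. RNA was sequenced from the epithelial region of the back skin of C57BL/6 mice, in 3 IL-33 KO libraries, from mice without interleukin-33, and in 3 libraries from WT (wild-type) mice. Both genotypes received 0.25% DNFB (dinitrofluorobenzene, a contact allergen) in acetone and olive oil on the back 3 times a week for 22 days. Every library therefore comes from allergen-treated skin, and none from untreated skin. The labels give neither the construction of the IL-33 KO allele nor the age or sex of the mice. Whether each library came from its own animal is not stated either. The p-values cover only the spread between these libraries, which may be technical.

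Desmosomes are the spot-like junctions that hold keratinocytes together. Desmogleins and desmocollins bridge the gap between neighbouring cells, plakoglobin (Jup) and plakophilin (Pkp1) bind their tails, and desmoplakin (Dsp) ties this plaque to the keratin filaments. In the epidermis Dsg3, Dsc3 and Dsc2 are best known from the lower layers and Dsg1 and Dsc1 from the upper layers. In the stratum corneum, corneodesmosin (Cdsn) is built into the outer face of the junction, and kallikrein peptidases later cut it there to let dead cells shed.

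No desmosome gene of the 10 passed the test between IL-33 KO and WT. The count was 0 of 10 at an adjusted p under 0.05 in edgeR's quasi-likelihood test, where 0.0191% of all tested genes passed, and 0 of 10 at an unadjusted p under 0.05, which 9.02% of all tested genes reached. The unadjusted count was 3 without WT 3 (Cdsn, Dsc1 and Jup) and 1 without IL-33 KO 3 (Dsg2). DESeq2 also called 0 of 10 (1.31% of all genes) and limma-voom 0 of 10 (11 of all 15720 genes). The libraries of the genotypes overlapped for all 10 genes, whereas 13.9% of all tested genes had no overlap in either direction. The fitted level was lower in IL-33 KO for 8 genes and higher for 2, Dsg2 and Dsp, against 52% of all tested genes below 0. Dsg3 lay so close to 0 that the split was 7 lower and 3 higher with each other library scaling. The median log2 fold change was -0.16, against -0.01 over all tested genes, and it was -0.01 without WT 1 and -0.30 without IL-33 KO 2. For 9 of the 10 genes the 95% interval of the IL-33 KO level, relative to WT, lay between 0.517-fold and 1.62-fold. Corneodesmosin had the widest interval, from 0.428-fold to 1.20-fold. Changes inside these bounds cannot be told from no change with 3 libraries per genotype.

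**Figure D1:**
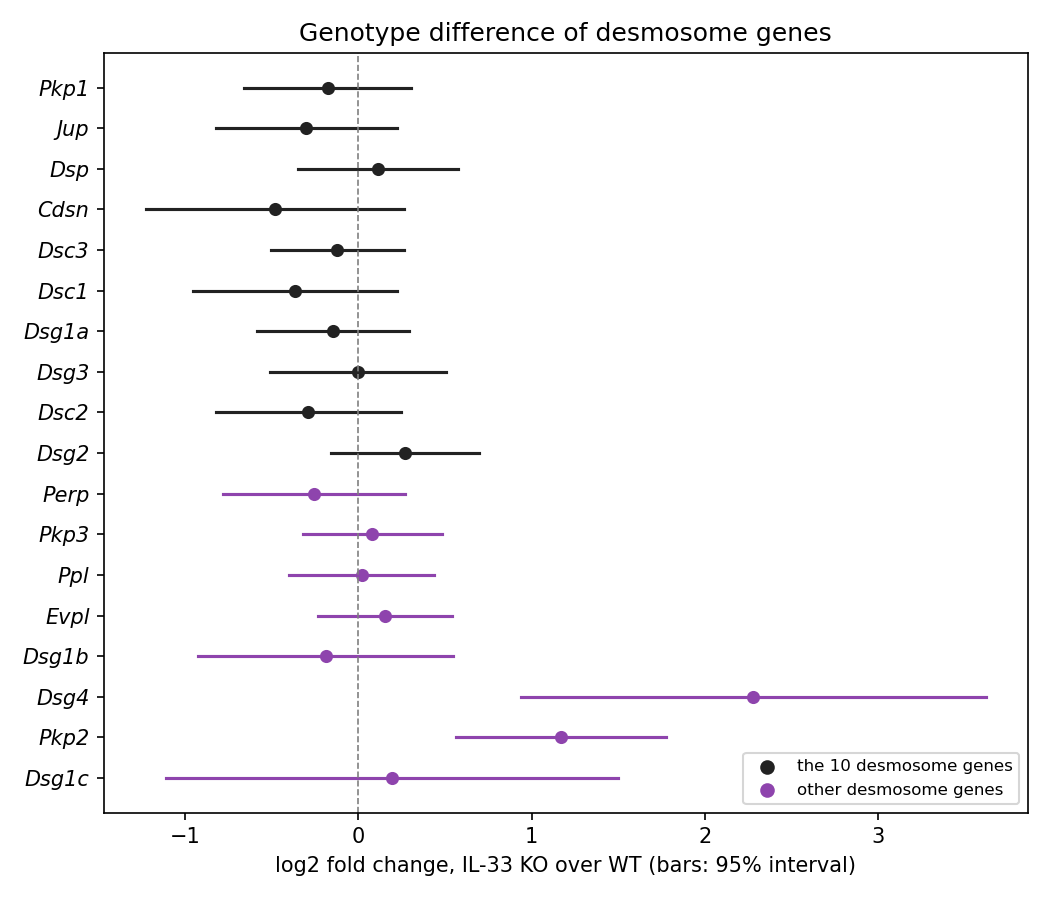
Log2 fold change of IL-33 KO over WT (horizontal axis) for the 10 desmosome genes (black) and 8 other desmosome genes (purple), from edgeR over 3 libraries per genotype, with 95% intervals as bars. All 10 black intervals cross 0, with centres from -0.48 (Cdsn) to 0.27 (Dsg2), while Dsg4 (2.28) and Pkp2 (1.17) lie to the right.

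The libraries held 20459574 to 24359612 counts. Il33, the deleted gene, was found at 0.885, 0.928 and 0.532 CPM (counts scaled to the TMM library size) in IL-33 KO 1, 2 and 3 and at 197, 135 and 111 CPM in the WT libraries, matching the genotype labels. Markers of the epidermis were abundant in all libraries, with 45863 to 103562 CPM summed over 11 keratins, but 6 fibroblast genes also summed to 11716 to 22468 CPM, so the pieces were not epithelium alone. WT 3 had the highest fibroblast sum. In bulk tissue, fewer cells of a type and less RNA per cell cannot be told apart, and this holds for every gene below.

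Of the 10 genes, 6 lie in the cadherin cluster of chromosome 18, which in the deposited mm10 coordinates runs from 19960930 (Dsc3) to 20604521 (Dsg2). Dsc3, Dsc2 and Dsc1 are read from the minus strand and Dsg1a, Dsg3 and Dsg2 from the plus strand. Dsp lies on chromosome 13 (38151328 to 38198577), Jup on chromosome 11 (100368958 to 100397763), Pkp1 on chromosome 1 (135871395 to 135919207) and Cdsn on chromosome 17 (35552128 to 35557180). Per gene length, in FPKM (counts scaled by gene length and total count), the plaque genes were the most abundant. Mean FPKM over the 6 libraries was 455 for Pkp1, 428 for Jup and 417 for Dsp, followed by 319 for Cdsn. The cadherins came next, with Dsc3 at 183, Dsc1 at 132, Dsg1a at 122, Dsg3 at 58.6 and Dsc2 at 25.5 FPKM. Dsg2, the desmoglein of simple epithelia, was the least abundant at 5.08 FPKM. Neighbours in this order overlapped in range from Pkp1 down to Dsg1a. Within a library, Cdsn was above Dsc3 and Dsc3 above Dsc1 in 6 of 6 libraries, but Jup was above Dsp in only 3 of 6. The steps from Dsg1a to Dsg3, from Dsg3 to Dsc2 and from Dsc2 to Dsg2 had no overlap. The 10 genes together took 0.973% to 1.24% of all counts of a library.

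**Figure D2:**
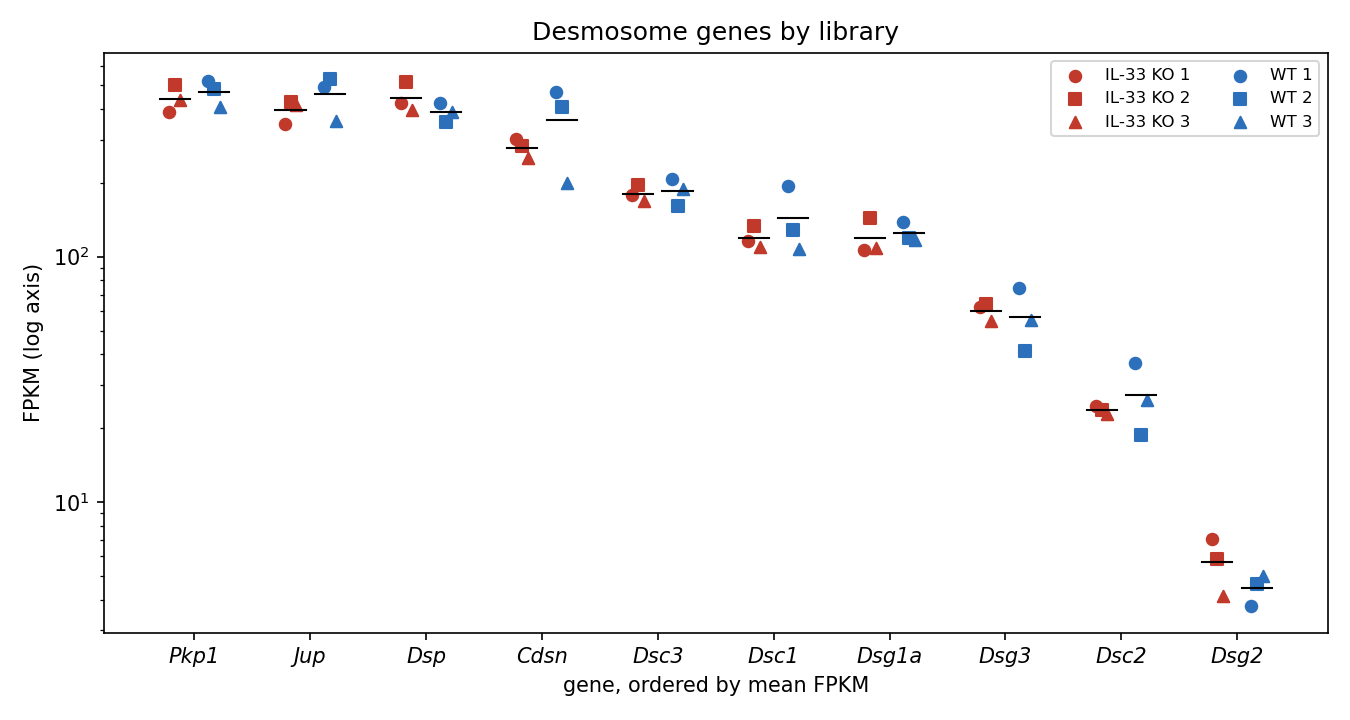
FPKM on a log axis for each of the 10 desmosome genes, ordered by mean level, in 3 IL-33 KO libraries (red) and 3 WT libraries (blue), with black lines at the genotype means. The levels run from about 455 for Pkp1 to 5.08 for Dsg2, and the red and blue points overlap for each gene.

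Among the desmogleins, Dsg1a, the upper-layer form and the target of pemphigus foliaceus antibodies, was measured at 107, 143 and 108 FPKM in IL-33 KO 1, 2 and 3 and at 138, 119 and 117 in WT 1, 2 and 3. Its highest and second highest values came from different genotypes, with IL-33 KO 2 on top in FPKM and WT 1 on top in CPM, which is scaled differently. The log2 fold change was -0.15 ± 0.19 (SE; adjusted p 0.821 in edgeR), and it was -0.32 without IL-33 KO 2 and -0.03 without WT 1. Dsg1a has close copies next to it, Dsg1b and Dsg1c, and 31.6% of the 50-base stretches of its annotated transcripts also occur in Dsg1b, so the division of reads between them is uncertain. With the 3 copies summed, an alternative chosen after seeing the data, the IL-33 KO level was 877 ± 180 CPM and the WT level 977 ± 217 CPM (SD, n = 3), and the log2 fold change of -0.16 ± 0.22 had an adjusted p of 0.837 in edgeR. Summing the copies therefore left the comparison as it was.

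Dsg3, the lower-layer form and the target of pemphigus vulgaris antibodies, was at 62.4, 64.2 and 54.4 FPKM in IL-33 KO and at 74.3, 41.2 and 55.0 FPKM in WT. The WT libraries held both its highest and its lowest value, and the log2 fold change was -7.5e-04 with an SE of 0.22 (adjusted p 0.999 in edgeR). Dsg2 was at 7.08, 5.86 and 4.15 FPKM in IL-33 KO and at 3.76, 4.63 and 5.01 in WT. It was the member with the largest positive log2 fold change, 0.27 ± 0.19 (adjusted p 0.677 in edgeR), and IL-33 KO 3 lay below both WT 2 and WT 3. Without IL-33 KO 3 the log2 fold change was 0.44, and without IL-33 KO 1 it was 0.12. An antisense transcript, Gm16090, covers 3.99% of the Dsg2 exon bases. No label or header says whether counting used the strand.

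The desmocollins pair with the desmogleins in the same layers. Dsc1, the upper-layer form, was at 116, 134 and 109 FPKM in IL-33 KO and at 195, 129 and 107 FPKM in WT. In FPKM WT 1 alone stood above the IL-33 KO libraries, while in CPM WT 2 (518) was also above the highest of them (503). The log2 fold change of -0.36 ± 0.25 (adjusted p 0.681 in edgeR) was -0.04 without WT 1 and -0.58 without WT 3. Dsc2 showed the same library on top, at 24.6, 23.7 and 22.9 FPKM in IL-33 KO against 36.9, 18.8 and 26.0 in WT. Its log2 fold change of -0.29 ± 0.23 (adjusted p 0.716 in edgeR) turned to 0.04 without WT 1. Dsc3, the lower-layer form and the most abundant desmosomal cadherin here, was at 178, 195 and 168 FPKM in IL-33 KO and at 207, 161 and 188 in WT (log2 fold change -0.12 ± 0.17, adjusted p 0.834 in edgeR, and 0.0045 without WT 1). In FPKM the 3 IL-33 KO values of each desmocollin lay within the range of the WT values. For Dsc2 they were also close to each other, at 23.7 ± 0.849 FPKM against 27.2 ± 9.11 in WT (SD, n = 3). The SD in FPKM was larger in IL-33 KO for Dsp (63.5 against 35.0), Dsg1a (20.7 against 11.8) and Dsg2 (1.47 against 0.640). It was smaller there for the other members, and spread was not tested.

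In the plaque, Dsp, which links the junction to keratin, was at 424, 516 and 394 FPKM in IL-33 KO and at 424, 354 and 388 FPKM in WT. It was higher on average in IL-33 KO, with a log2 fold change of 0.11 ± 0.20 (adjusted p 0.871 in edgeR) that was -0.03 without IL-33 KO 2. An antisense gene, Gm10129, covers 5.17% of the Dsp exon bases. Jup, plakoglobin, which also serves in adherens junctions and is related to beta-catenin, was at 346, 429 and 416 FPKM in IL-33 KO and at 490, 528 and 359 in WT. WT 1 and 2 lay above all IL-33 KO libraries and WT 3 below 2 of them, and the log2 fold change of -0.30 ± 0.23 (adjusted p 0.699 in edgeR) was -0.49 without WT 3 and -0.16 without WT 2. Pkp1, the plakophilin of the upper epidermis that is lost in ectodermal dysplasia with skin fragility, was at 388, 500 and 434 FPKM in IL-33 KO and at 518, 485 and 406 in WT (log2 fold change -0.18 ± 0.21, adjusted p 0.799 in edgeR). Its genotype means of 441 ± 56.5 and 469 ± 57.7 FPKM (SD, n = 3) differed by less than the SD of either genotype, and the log2 fold change was -0.32 without WT 3 and -0.07 without either IL-33 KO 1 or WT 1.

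Cdsn had the largest negative log2 fold change of the 10 genes and the largest spread. It was at 301, 282 and 252 FPKM in IL-33 KO 1, 2 and 3 and at 471, 408 and 199 FPKM in WT 1, 2 and 3. WT 1 and 2 stood above all IL-33 KO libraries, while WT 3 was the lowest of the 6. The IL-33 KO mean was 278 ± 24.6 FPKM and the WT mean 359 ± 142 FPKM (SD, n = 3), and the log2 fold change was -0.48 ± 0.32 (adjusted p 0.671 in edgeR). Without WT 3 it was -0.80 with an adjusted p of 0.0732 in edgeR, the smallest adjusted p that any of the 10 genes had in any setting tried. Without WT 1 it was -0.21.

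Windows from the RefSeq promoter table show how the sequences ahead of 2 plaque genes and of Cdsn differ. Entries are given for 3 of the 10 genes. No cadherin window is given, which does not mean that the cadherins lack an entry. Cdsn has 2 entries, of which the one at the listed gene start is shown, and the other (chr17:35542851-35543100, GC content 55.2%) begins 9027 bases further upstream. The 250 bases before each annotated start are printed 5′ to 3′ on the strand of the gene in GRCm38.p6, with the GC box GGGCGG, or CCGCCC on the other strand, in capitals.
Dsp, chr13:38151044-38151293, plus strand: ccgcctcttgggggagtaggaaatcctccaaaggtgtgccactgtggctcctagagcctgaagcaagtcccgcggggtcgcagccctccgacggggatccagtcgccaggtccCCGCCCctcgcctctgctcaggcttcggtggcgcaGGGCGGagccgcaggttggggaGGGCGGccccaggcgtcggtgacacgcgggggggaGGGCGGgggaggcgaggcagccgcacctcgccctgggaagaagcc
Jup, chr11:100397791-100398040, minus strand: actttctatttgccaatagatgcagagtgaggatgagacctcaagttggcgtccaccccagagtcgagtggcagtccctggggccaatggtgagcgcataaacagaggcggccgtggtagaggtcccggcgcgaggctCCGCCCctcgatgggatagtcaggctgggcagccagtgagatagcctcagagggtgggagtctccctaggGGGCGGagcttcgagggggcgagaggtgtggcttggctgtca
Cdsn, chr17:35551878-35552127, plus strand: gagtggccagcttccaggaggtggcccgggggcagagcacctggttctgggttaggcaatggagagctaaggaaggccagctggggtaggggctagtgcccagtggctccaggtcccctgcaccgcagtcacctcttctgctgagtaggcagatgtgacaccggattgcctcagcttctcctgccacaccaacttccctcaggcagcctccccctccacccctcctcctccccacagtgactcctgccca
Dsp has 4 GC boxes in this window and Jup has 2, where 33.0% of 32536 promoter windows of the same length hold at least 1, and the Cdsn window shown has 0. GC content was 72.4% for Dsp, 62.0% for Jup and 64.0% for Cdsn, against a median of 52.4% over all windows. On both strands, the AP-1 motif TGANTCA (6.73% of all windows), the Grainyhead-like motif AACCNGTT (1.79%) and the TATA box TATAAA (12.3%) had 0 matches in each of the 3 windows. A match is a run of letters and not a measured site, and no binding was measured in these libraries.

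Across libraries, in CPM, 7 of the 10 genes had their highest value in WT 1: the cadherins other than Dsg2, Pkp1 and Cdsn. The others had it in IL-33 KO 1 (Dsg2), IL-33 KO 2 (Dsp) and WT 2 (Jup). The lowest value fell in IL-33 KO 1 for 4 genes, in WT 3 for 3, in WT 2 for 2 and in WT 1 for Dsg2. On the log2 CPM scale, relative to each gene's own mean, the average over the 10 genes was 0.36 in WT 1, 0.03 in WT 2 and -0.20 in WT 3. It was -0.13, 0.10 and -0.16 in IL-33 KO 1, 2 and 3, so all IL-33 KO libraries lay between the highest and the lowest WT library.

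Dsg2 departed from the others in this pattern. Pearson's r over the 6 libraries, given as a description of levels that share library and scaling, had a median of 0.53 over the 45 gene pairs and was above 0 in 37 pairs. The highest values were 0.94 for Jup with Pkp1, 0.92 for Dsg1a with Pkp1 and 0.88 each for Dsg3 with Dsc2, Dsc2 with Dsc3 and Dsc1 with Cdsn. Dsg2 had a negative r with 8 of the other 9 genes, down to -0.51 with Jup, and the exception was Dsp at 0.15. Among 9859 genes of at least 10 CPM outside the gene lists, the 5 that followed the average of the 10 genes most closely over the 6 libraries were Clcn5 (r 0.98), Pfkfb4 (0.98), Ehf (0.98), Arrdc4 (0.98) and Mapk14 (0.98). Ehf is an ETS transcription factor of epithelial cells, Mapk14 is the stress kinase p38 alpha and Pfkfb4 is an enzyme that sets the rate of glycolysis. In IL-33 KO, Ehf ran at 120, 155 and 129 CPM and in WT at 209, 159 and 115 CPM. Its highest value in WT 1 and lowest in WT 3 follow from choosing genes by likeness to the average.

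**Figure D3:**
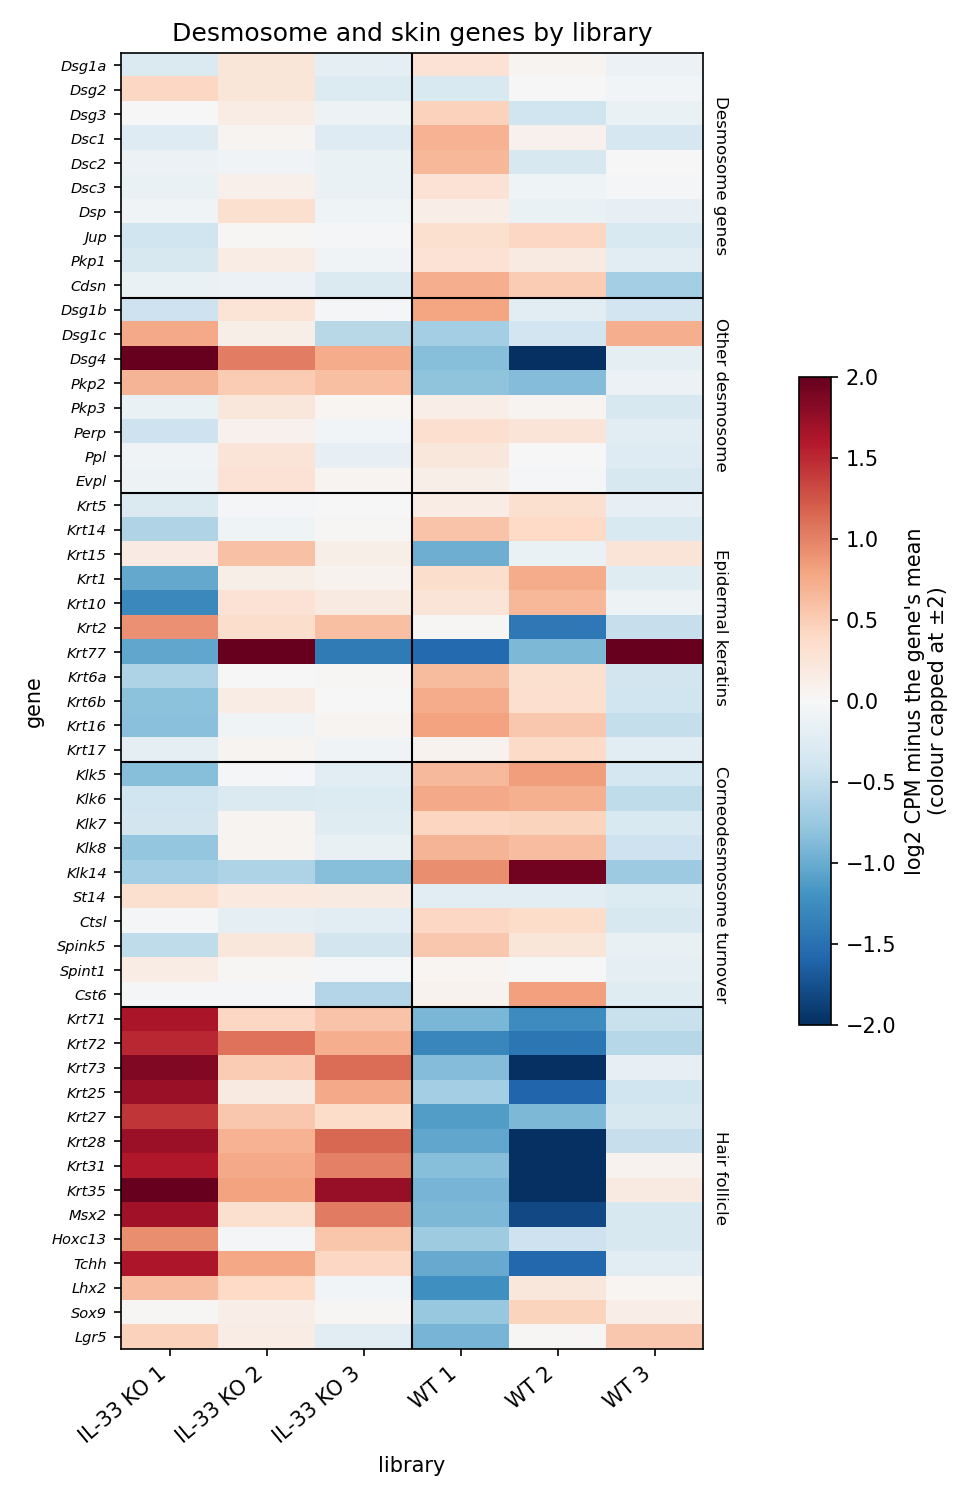
Log2 CPM of each gene minus its mean over the 6 libraries (colour, capped at 2 either way), for the desmosome genes and 4 further lists, with the 3 IL-33 KO libraries at the left. The desmosome genes are mostly red in WT 1 (average 0.36) and pale elsewhere, while Dsg4, Pkp2 and most hair follicle genes are red in all IL-33 KO libraries.

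Ratios within a library do not depend on how libraries are scaled, and they compare upper-layer with lower-layer forms. For desmogleins the ratio of Dsg1a to Dsg3 in FPKM was 1.71, 2.23 and 1.99 in IL-33 KO and 1.86, 2.88 and 2.13 in WT, so the upper-layer form led in every library. For desmocollins the ratio of Dsc1 to Dsc3 was 0.649, 0.684 and 0.648 in IL-33 KO and 0.940, 0.802 and 0.570 in WT, so the lower-layer form led in every library. The IL-33 KO values of this ratio lay close together, with an SD of 0.04 on the log2 scale against 0.37 in WT. For Dsp relative to Krt14 the SDs were nearer, at 0.34 and 0.37, and a difference in spread was not tested. The ratio of Cdsn to Dsp was 0.709, 0.546 and 0.638 in IL-33 KO and 1.11, 1.15 and 0.513 in WT, and exceeded 1 in WT 1 and 2 only. Dsp relative to Krt14, the basal keratin, was 0.0530, 0.0482 and 0.0340 in IL-33 KO and 0.0268, 0.0250 and 0.0403 in WT, a log2 difference of 0.56. The exact two-sided permutation p of this difference was 0.2. For Dsc1/Dsc3 and Cdsn/Dsp the exact p was 0.4 each, for Dsg1a/Dsg3 0.5, for Dsg2/Dsg3 0.6 and for Dsc1/Dsc2 0.8. After adjustment over the 6 ratios these exact permutation p-values were 0.72 to 0.8. With 3 libraries against 3 the smallest p possible is 0.1, so no ratio could have passed 0.05. The genotypes overlapped for each of the 6 ratios.

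As shares of the summed FPKM of the 3 desmogleins among the 10 genes, Dsg1a made up 60.6% to 72.2%, Dsg3 25.0% to 35.4% and Dsg2 1.74% to 4.02% in the 6 libraries. Of the 3 desmocollins, Dsc3 made up 47.2% to 58.5%, Dsc1 33.4% to 44.4% and Dsc2 6.08% to 8.41%. The order within each of these sets of 3 was thus the same in all 6 libraries. The sums leave out Dsg1b, Dsg1c and Dsg4, and with them the desmoglein order was not constant. Dsg1b was above Dsg3 in IL-33 KO 2 (66.6 against 64.2 FPKM), WT 1 (88.2 against 74.3) and WT 2 (44.2 against 41.2), and below it elsewhere. Dsg4 was above Dsg2 in every IL-33 KO library and below it in every WT library. Of all 10 genes, Dsp made up 21.4% ± 1.23 of the IL-33 KO sum and 17.8% ± 2.82 of the WT sum (SD, n = 3), with WT 3 at 21.0% inside the IL-33 KO range of 20.1% to 22.5%.

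**Figure D4:**
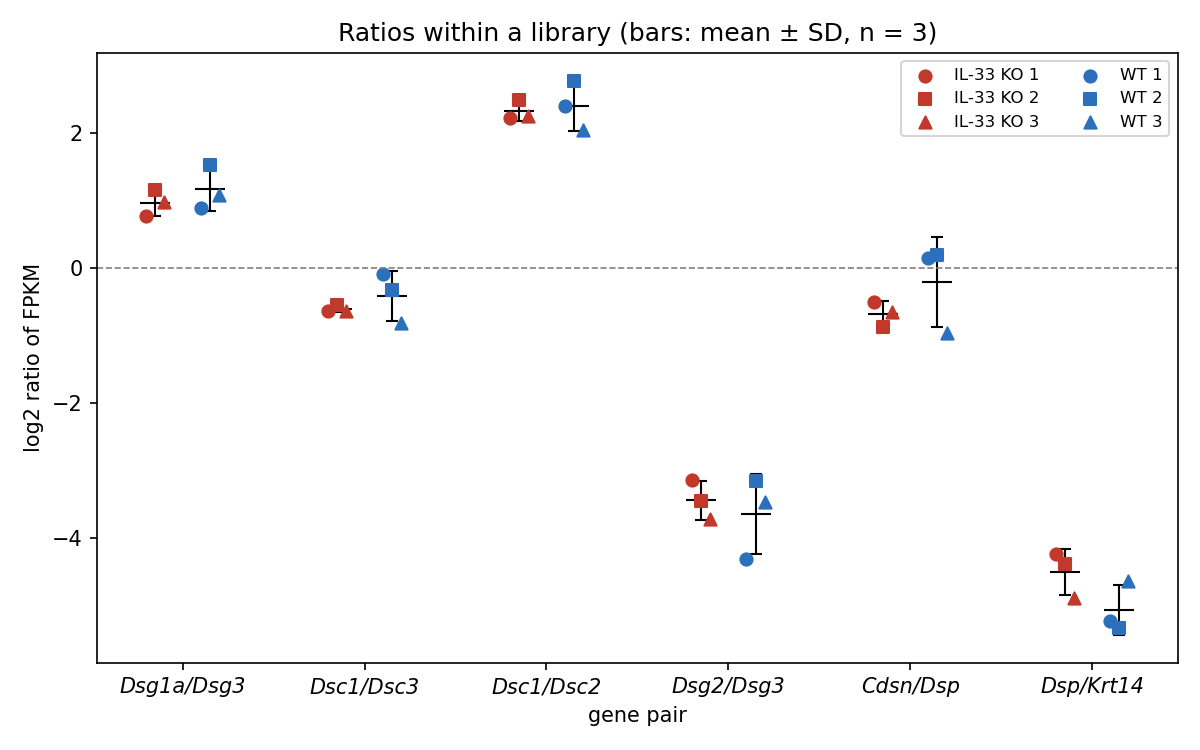
Log2 ratio of FPKM for 6 gene pairs within each library, IL-33 KO in red and WT in blue, with mean and SD (n = 3) as black bars. For Cdsn/Dsp, WT 1 and WT 2 lie just above 0 and WT 3 at -0.96, below all IL-33 KO points, and red and blue overlap for each pair.

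Of 8 other desmosome genes, 0 passed over all genes in edgeR, and Dsg4 and Pkp2 had an unadjusted p under 0.05. For both, every IL-33 KO library lay above every WT library, which held for 7.46% of all tested genes. Dsg4, the desmoglein of the hair shaft cortex, was at 17.0, 8.15 and 6.70 FPKM in IL-33 KO and at 2.04, 0.543 and 3.68 in WT (log2 fold change 2.28 ± 0.58, adjusted p 0.389 in edgeR). Pkp2, the plakophilin best known from heart and simple epithelia, was at 2.12, 1.76 and 1.88 FPKM in IL-33 KO and at 0.640, 0.616 and 1.18 in WT (log2 fold change 1.17 ± 0.26, adjusted p 0.329 in edgeR). Pkp2 passed in DESeq2, with an adjusted p of 0.0126, and Dsg4 did not (0.133). Of 14 tested hair follicle markers 0 passed in edgeR, but all 14 had a positive log2 fold change, 11 of them without overlap, and their sum in IL-33 KO was 10378 to 21513 CPM, against 2772 to 5801 CPM in WT. No marker of this list was at 0 in any library. Melanocyte and skeletal muscle markers were also higher on average, without passing in edgeR. Fibroblast markers were not, as 5 of 6 had a negative log2 fold change. All 4 melanocyte markers had a positive log2 fold change (median 1.30), with sums of 211, 94.7 and 175 CPM in IL-33 KO 1, 2 and 3 against 51.9 to 99.1 CPM in WT. Of 7 skeletal muscle markers 5 had enough counts to be tested, all with a positive log2 fold change, and the list summed to 126, 12.1 and 265 CPM in IL-33 KO 1, 2 and 3 against 8.24 to 9.21 CPM in WT. The 4 markers of simple epithelium, where Pkp2 is also found, summed to 8.13 to 11.2 CPM in the IL-33 KO libraries and 6.80 to 9.96 CPM in the WT libraries. Among them Krt18, a keratin of simple epithelia, was at 5.23, 3.84 and 4.50 CPM in the IL-33 KO libraries and at 2.67, 1.44 and 2.68 CPM in the WT libraries, without overlap (log2 fold change 1.00 ± 0.29, adjusted p 0.440 in edgeR). The genotypes overlapped for the other markers of simple epithelium, with log2 fold changes of -0.54 (Krt7), 0.34 (Krt8) and 0.55 (Krt19). The part of these cells in the Dsg4 and Pkp2 values was not tested.

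The remaining desmosome genes had log2 fold changes near those of the 10. Perp, a p63 target and tetraspan protein of the junction, was the most abundant, with an IL-33 KO level of 1687 ± 233 FPKM and a WT level of 1894 ± 270 FPKM (SD, n = 3; log2 fold change -0.25, adjusted p 0.738 in edgeR). Pkp3, which is found in all living layers, was at 216 ± 19.7 and 192 ± 19.3 FPKM (0.08, adjusted p 0.894 in edgeR). The plakins Ppl and Evpl, periplakin and envoplakin, had log2 fold changes of 0.02 and 0.15. Dsg1b, at 55.1 ± 11.0 and 58.9 ± 25.4 FPKM, had -0.19, and Dsg1c was nearly silent at 0.0689 to 0.255 FPKM.

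The keratins to which desmosomes are tied were, as a sum, highest in WT 1 and WT 2. Of 11 epidermal keratins 0 passed in edgeR and 8 had a negative log2 fold change, with a median of -0.42. Their summed level in IL-33 KO was 45863, 75142.5 and 75047.6 CPM, and in WT it was 103562, 100571 and 60154 CPM. The smallest p belonged to Krt2, a keratin of the upper layers that was barely present (IL-33 KO 1.20 ± 0.255 CPM, WT 0.496 ± 0.269 CPM; SD, n = 3), and to Krt15, a basal and bulge keratin (384 ± 71.3 and 272 ± 108 CPM). In these 2 keratins the mean was higher in IL-33 KO, with adjusted p of 0.504 and 0.634 in edgeR. Their overlap differed, since Krt2 had none and Krt15 had some.

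Among 10 genes of corneodesmosome turnover, 0 passed in edgeR, 8 had a negative log2 fold change and the median was -0.45. Klk14, a kallikrein that cleaves corneodesmosomal proteins, ran at 7.08, 7.38 and 6.29 CPM in the IL-33 KO libraries and at 21.6, 43.5 and 6.86 CPM in the WT libraries (log2 fold change -1.79 ± 0.55, adjusted p 0.465 in edgeR). As for Cdsn, WT 1 and 2 were above all IL-33 KO libraries and WT 3 was not. St14, matriptase, a membrane protease that activates kallikreins, went the other way at 167, 153 and 151 CPM in the IL-33 KO libraries against 115, 114 and 110 CPM in WT, with no overlap (0.48 ± 0.11, adjusted p 0.343 in edgeR).

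Genes of the adherens junction, where plakoglobin is also found, summed to 2216 to 2421 CPM over the 6 libraries, while the 10 desmosome genes summed to 9295 to 13326 CPM. Of 10 adherens junction genes 0 passed in edgeR, 6 had a positive and 4 a negative log2 fold change, and the median was 0.05. The smallest p belonged to Cdh3, P-cadherin (78.1 ± 11.5 CPM in IL-33 KO, 68.6 ± 8.09 in WT, adjusted p 0.713 in edgeR), and Ctnnd1, p120 catenin (58.9 ± 9.34 and 67.6 ± 15.1 CPM, adjusted p 0.751). Among 10 transcriptional regulators of the epidermis 0 passed in edgeR and 7 had a negative log2 fold change, with a median of -0.09. Grhl3, a Grainyhead-like factor of barrier formation, had an IL-33 KO level of 71.3 ± 15.1 CPM and a WT level of 108 ± 41.5 (adjusted p 0.578 in edgeR), and Klf4, a factor of terminal differentiation, at 544 ± 90.9 and 719 ± 161 (adjusted p 0.605 in edgeR). For both, the genotypes overlapped.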

How the data were processed

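Per the labels, total RNA of the epithelial region of back skin was sequenced in 6 libraries, and the sample titles gave genotype and replicate number. The authors deposited whole-number read counts and FPKM values for the same 35275 genes. STAR, RSEM and mm10 are named in the submitters' processing notes, without versions. The deposited FPKM equal count divided by listed length and column total within a relative difference of 2.782e-07, so they are not TMM-scaled.

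The test on counts was run in edgeR 4.0.16 (R 4.3.3): filterByExpr, TMM, glmQLFit with robust=FALSE and glmQLFTest, two-sided, Benjamini-Hochberg over 15720 genes, threshold 0.05. SEs and 95% intervals were derived from the F statistic. The biological coefficient of variation was 21.3%. The scripts were tested on simulated data. Alternatives were DESeq2 1.42.0, limma 3.58.1 (voom, and trend on log2(FPKM + 1) and log2(FPKM + 0.1)), other scalings and filters, the replicate block, and each library left out. Depth was 20459574 to 24359612 counts per library, and each of the 10 genes had at least 462 counts in every library.

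The genes and lists were chosen with earlier results of these data known. The text names all 10 genes, 8 further desmosome genes, the 2 smallest p in the keratin, turnover, adherens junction and regulator lists, which had no passing gene, and the 5 genes most like the average of the 10. The libraries of Ehf, and Krt18 with the other simple epithelium markers beside it, were chosen after their values were seen. Of the list symbols 4 were matched by gene ID and 1, Krt85, was not matched. The marker lists had 0 passing genes each. Median log2 fold changes were 0.29 (sebaceous), 0.78 (adipocyte), 0.07 (endothelial), -0.07 (leukocyte) and -0.37 (fibroblast). All pairs of libraries differed beyond sampling noise (chi-square per degree of freedom at least 31.66). RefSeq promoter sequences are of GRCm38.p6, and shared 50-base stretches and exon overlap come from GENCODE M21. Figures were drawn with matplotlib 3.10.9.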

Additional observations from a re-analysis of the deposited data

How the results depend on the processing

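In every setting 0 of the 10 desmosome genes passed, and their median log2 fold change stayed below 0, from -0.30 to -0.01 when 1 library was left out. The log2 fold change of Dsg3 turned positive with RLE factors (0.0018), upper quartile (0.023) and total-count scaling (0.087), no filter on low counts (0.0013), at least 1 CPM in 3 libraries (0.0026), DESeq2 (0.0018), limma-voom (0.036), log2(FPKM + 1) with and without a filter (0.12 each) and log2(FPKM + 0.1) (0.12). With 1 library left out it ranged from -0.17 to 0.29, that of Dsp from -0.030 to 0.22, Dsc2 from -0.48 to 0.043 and Dsc3 from -0.20 to 0.0045. The log2 ratio difference ranged from -0.26 to 0.11 for Dsc1/Dsc2 and from -0.13 to 0.45 for Dsg2/Dsg3. The count over all genes, 3, was 5 with upper quartile scaling, total counts or at least 1 CPM, 33 unfiltered, 206 in DESeq2, 11 in limma-voom and with log2(FPKM + 0.1), 15 and 6 with log2(FPKM + 1) filtered and unfiltered, and 2 to 24 with 1 library left out (24 without WT 3). The cause was not tested. Same-numbered libraries did not deviate together (correlations -0.264, -0.117 and -0.378). Deviations from a mean of 3 libraries depend on each other, so these correlations cannot decide whether the replicate number marks pairs. With the replicate block 2 genes passed, 0 of them among the 10, and Dsg3 had a log2 fold change of 0.042. Depth was at least 462 counts for each of the 10 genes in every library.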
